A study of Mus musculus with 45 samples.

Results

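Of the REV-ERBα peaks listed in mouse liver at zeitgeber time 10 (ZT10), 1074 lay where the ends of neighbouring genes come close together. They were chosen by position alone: the summit, the highest point of a peak, had to lie within 1 kb of an end of at least 2 different protein-coding genes on chromosomes 1 to 19. This took 3.89% of the 27622 ZT10 peaks on those chromosomes, of 27929 listed in all. Another 5373 summits had a single gene end within 1 kb and 21175 had none. The 1074 shared peaks touched 2078 genes, with 2 genes at 1057 peaks and 3 genes at 17. There were 1055 different sets of genes, and 19 of them held 2 peaks each.

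Chromatin immunoprecipitation with sequencing was done with anti-HA beads on liver nuclei of mice with the genotype REV-ERBa3HA/3HA, in which REV-ERBα carries a 3HA tag, and no AAV virus was given. There were 4 samples at ZT10 and 4 at ZT22, hours of the light-dark cycle counted from lights on. Each time is 1 peak list made by the authors from all 4 samples together, so no value has a spread between samples and no test between groups was made. The other 37 of the 45 samples, among them input and anti-HA on untagged B6-WT liver, were not analysed here, so whether a peak needs the tag was not tested. The labels do not say whether the 4 samples of a time came from separate animals, or give an age or sex.

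REV-ERBα, encoded by Nr1d1, is a heme-binding nuclear receptor that represses transcription through the corepressor NCOR1, and it accumulates in liver during the light phase. It binds DNA directly at the letters AGGTCA preceded by an A/T-rich stretch or repeated in tandem, and it can also be held at DNA by other factors. Many mammalian genes start back to back with a neighbour and share a bidirectional promoter. Such promoters are typically rich in CG dinucleotides and poor in TATA boxes, and many serve housekeeping genes of mitochondria, translation and DNA repair.

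The letters under some of these summits are shown here because they carry the contrast described further on: strong shared peaks sit at promoters with and without the half-site AGGTCA. Each window is 300 bases of RefSeq sequence on the build GRCm38.p6 (mm10). It runs from 250 bases before to 50 after an annotated start and is written 5′ to 3′ along the gene. Capitals mark AGGTCA or CCGGAAG on either strand, the reverse forms being TGACCT and CTTCCGG, and CCGGAAG is the core recognised by many ETS factors such as GABPA. Dbp is a clock output gene. Cept1, Amdhd1, Ddx5 and Mcm7 are from back-to-back pairs among the 20 strongest shared peaks, and Hspd1 and Atg3 are weaker ones. The windows were chosen among those that held the summit after their letters had been seen.
Dbp (chr7:45704997-45705296, plus strand): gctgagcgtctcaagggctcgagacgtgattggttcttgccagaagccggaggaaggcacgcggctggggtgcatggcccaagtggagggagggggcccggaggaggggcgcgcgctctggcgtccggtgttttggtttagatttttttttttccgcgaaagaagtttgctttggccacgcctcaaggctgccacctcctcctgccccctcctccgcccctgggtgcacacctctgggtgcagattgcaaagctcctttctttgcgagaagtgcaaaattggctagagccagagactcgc
Cept1 (chr3:106547753-106548052, minus strand): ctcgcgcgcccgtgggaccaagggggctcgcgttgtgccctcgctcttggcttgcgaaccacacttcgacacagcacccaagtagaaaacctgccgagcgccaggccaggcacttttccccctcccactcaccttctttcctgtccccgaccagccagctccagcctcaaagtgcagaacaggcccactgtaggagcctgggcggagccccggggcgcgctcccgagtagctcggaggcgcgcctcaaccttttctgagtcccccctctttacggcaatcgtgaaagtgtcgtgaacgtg
Amdhd1 (chr10:93539984-93540283, minus strand): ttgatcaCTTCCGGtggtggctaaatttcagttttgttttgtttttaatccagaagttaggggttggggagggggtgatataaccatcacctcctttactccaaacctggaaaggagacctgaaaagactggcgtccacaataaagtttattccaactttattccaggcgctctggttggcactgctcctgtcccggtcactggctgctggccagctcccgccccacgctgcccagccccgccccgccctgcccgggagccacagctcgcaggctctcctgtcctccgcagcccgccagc
Ddx5 (chr11:106788858-106789157, minus strand): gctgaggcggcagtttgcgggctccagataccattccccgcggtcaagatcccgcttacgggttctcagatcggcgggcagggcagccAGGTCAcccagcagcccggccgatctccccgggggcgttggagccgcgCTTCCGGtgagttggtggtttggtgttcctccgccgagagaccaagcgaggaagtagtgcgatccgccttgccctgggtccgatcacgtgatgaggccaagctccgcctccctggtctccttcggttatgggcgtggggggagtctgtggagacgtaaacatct
Mcm7 (chr5:138171217-138171516, minus strand): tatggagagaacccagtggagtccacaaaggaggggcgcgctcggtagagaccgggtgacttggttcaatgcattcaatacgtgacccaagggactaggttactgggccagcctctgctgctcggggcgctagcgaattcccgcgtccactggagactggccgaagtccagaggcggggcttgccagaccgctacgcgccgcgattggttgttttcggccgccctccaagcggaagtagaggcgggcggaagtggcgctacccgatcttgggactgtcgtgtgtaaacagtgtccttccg
Hspd1 (chr1:55087883-55088182, minus strand): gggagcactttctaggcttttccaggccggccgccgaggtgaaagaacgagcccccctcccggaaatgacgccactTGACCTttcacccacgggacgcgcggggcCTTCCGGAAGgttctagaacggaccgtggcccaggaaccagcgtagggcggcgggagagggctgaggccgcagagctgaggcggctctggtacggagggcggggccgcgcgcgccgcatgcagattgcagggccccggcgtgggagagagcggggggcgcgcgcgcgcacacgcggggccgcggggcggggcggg
Atg3 (chr16:45158579-45158878, plus strand): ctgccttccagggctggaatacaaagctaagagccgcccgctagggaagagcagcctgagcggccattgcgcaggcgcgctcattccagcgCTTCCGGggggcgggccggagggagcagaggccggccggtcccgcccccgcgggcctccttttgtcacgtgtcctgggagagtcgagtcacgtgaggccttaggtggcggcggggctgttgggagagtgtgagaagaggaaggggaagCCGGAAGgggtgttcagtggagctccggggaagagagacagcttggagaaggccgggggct

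Counted from 1 at the 5′ end of each window, the summit fell on base 88 at Ddx5, which encodes an RNA helicase, next to an AGGTCA that begins at base 89. At Hspd1, which encodes the mitochondrial chaperonin subunit HSP60, the summit fell on base 65 and the reverse half-site begins at base 77. The same window holds 2 overlapping CCGGAAG matches, one per strand, which begin at bases 106 and 109. At Atg3, which encodes the enzyme that joins LC3 to lipid in autophagy, CCGGAAG matches begin at bases 92 and 240 on either side of the summit on base 225. The Dbp summit on base 130, the Cept1 summit on base 6 and the Mcm7 summit on base 92 lie in windows with neither set of letters. The Amdhd1 summit on base 55 has no AGGTCA in its window and a CCGGAAG match that begins at base 8. The annotated start used for a window can lie inside the gene span, as it does for Dbp, Amdhd1, Ddx5, Mcm7 and Hspd1, and distances given further on are to the end of the span.

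The label of these peaks, between close gene pairs, held only in part. Among the 1057 peaks with 2 genes, the summit lay in neither gene at 202 (19.1%), inside 1 gene at 712 and inside both at 143. The spans of the genes themselves overlapped at 342 pairs, of which 22 were nested, and lay apart at 715. The median distance between the gene ends was 175 bp, with quartiles of 64.0 and 411 bp. The peaks were wider than that: the listed interval covered every gene end in reach at 925 of 1074 (86.1%) and no end at 35. The median summit lay 132 bp from the nearer end and 337 bp from the farther one, and 756 (71.5%) lay within 250 bp of the nearer end. They are therefore called shared peaks here, since most sit over both gene ends with the summit inside one gene.

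Most of the pairs met at their 5′ ends. The strand of both genes was known for 809 of the 1057 pairs (76.5%). Of these, 636 (78.6%) were head to head, meaning here that both ends in reach were 5′ ends. Another 153 (18.9%) were head to tail and 20 (2.47%) were tail to tail. The label does not ask that the genes run in opposite directions. Genes that start together on the same strand would also count as head to head, and they were not counted apart. At head-to-head pairs the 5′ ends lay a median of 139 bp apart and the summit a median of 170 bp from their midpoint. The summit lay within 250 bp of the midpoint at 402 (63.2%) and within 500 bp at 574. The choice of peaks within 1 kb of both ends keeps every summit within 1 kb of the midpoint, so this closeness is partly set by it. Where the head-to-head spans did not overlap, the summit lay between the 5′ ends at 94 of 405 pairs (23.2%) and just inside one of the genes at the other 311. At head-to-tail pairs the summit was nearer the 5′ end at 113 of 153 (73.9%), with median distances of 225 bp to the 5′ end and 482 bp to the 3′ end.

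**Figure D1:**
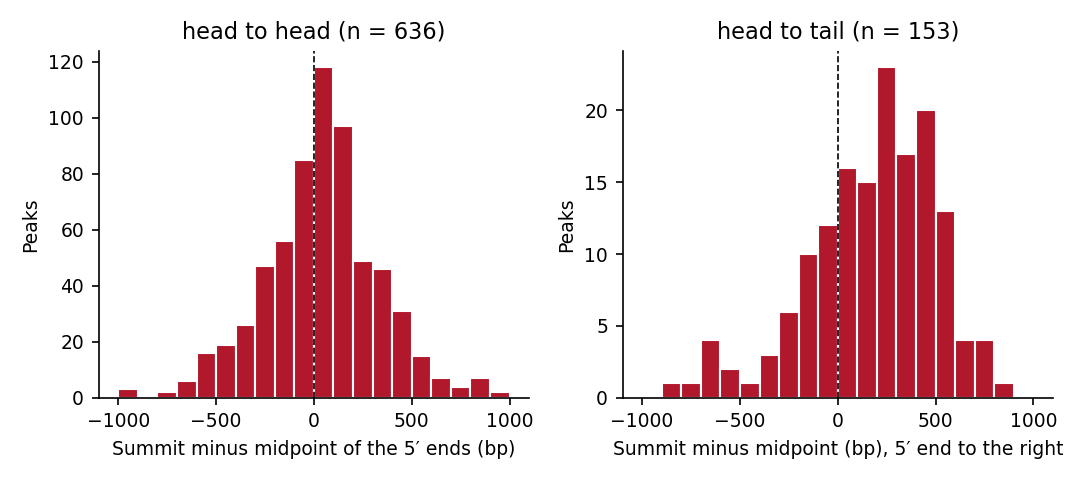
Position of the summit relative to the midpoint of the 2 gene ends, in bp, for 636 head-to-head pairs (left, along the chromosome) and 153 head-to-tail pairs (right, turned so that the 5′ end is on the right); bars count peaks in bins of 100 bp. Of the head-to-head summits, 402 lie within 250 bp of the midpoint, and head-to-tail summits lie mostly on the side of the 5′ end, 113 of 153. The choice of peaks keeps every summit within 1 kb of the midpoint.

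To set these counts against the genome, all pairs of protein-coding gene ends up to 2 kb apart on chromosomes 1 to 19 were taken, with or without a peak. A ZT10 summit lay within 1 kb of both ends at 1145 of 5054 such pairs (22.7%). The share was 665 of 1058 (62.9%) for head-to-head ends, 183 of 1109 (16.5%) for head-to-tail ends, 25 of 1128 (2.22%) for tail-to-tail ends and 272 of 1759 (15.5%) where a strand was not known. Gene ends with no other end within 2 kb had a summit within 1 kb at 3596 of 13133 5′ ends (27.4%) and 332 of 12885 3′ ends (2.58%). A summit within 1 kb is easier to place near a single end than near both, so these shares have different targets. In the other direction, a head-to-head pair offers a peak the 5′ ends of both genes and a lone end only its own. Neither difference was adjusted for. Among head-to-head ends the share was 69.6% up to 250 bp apart (429 of 616), 75.4% over 250 and up to 500 bp (129 of 171), 61.7% over 500 and up to 1000 bp (82 of 133) and 18.1% over 1000 and up to 2000 bp (25 of 138). At the widest distances only a summit near the midpoint can reach both ends. Head-to-tail ends followed with 30.9%, 30.8%, 25.2% and 3.75% over the same ranges. Some peaks count for more than 1 pair here. How much of these shares follows from promoter activity in liver was not tested, since the lists hold no expression.

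**Figure D2:**
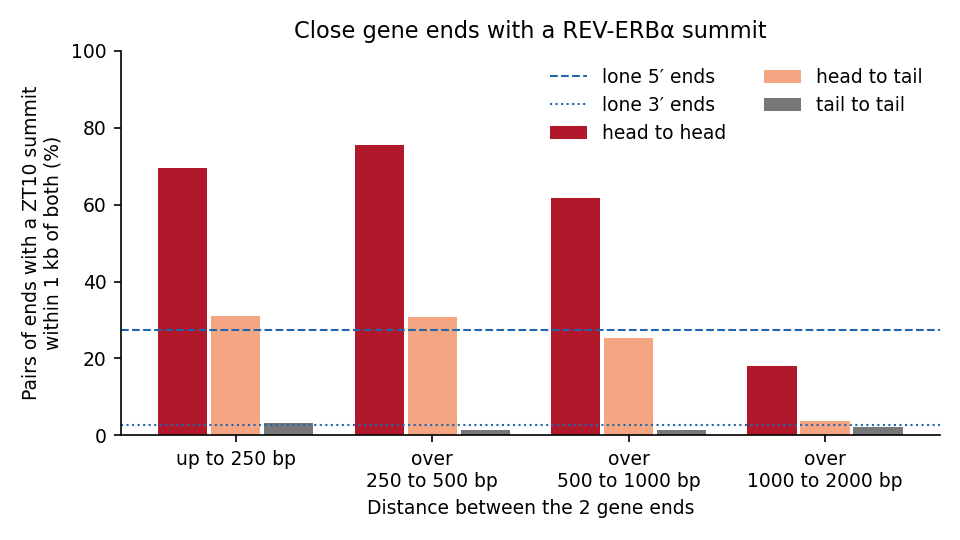
Share, in percent, of pairs of protein-coding gene ends up to 2 kb apart with a ZT10 summit within 1 kb of both ends, by distance between the ends and by orientation (bars), with the share of lone 5′ and lone 3′ ends that had a summit within 1 kb (lines). Head-to-head ends reach 75.4% over 250 and up to 500 bp, against 27.4% of lone 5′ ends, and tail-to-tail ends stay near the 2.58% of lone 3′ ends. The bars count pairs of ends and the lines single ends, which was not adjusted for.

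Shared peaks were of moderate height. The fold, which is the authors' ratio of summit signal over local background, had a median of 6.01 among the 1074, with quartiles of 4.93 and 7.45, a range of 4.01 to 36.0 and a mean on the log2 scale of 2.66 ± 0.47 (SD over peaks). Peaks at a single gene end had a median of 6.21 (quartiles 4.97 and 8.65) and peaks with no end in reach 7.16 (5.06 and 11.3). The classes were close in the lower part of their range and parted in the upper part, where the 90th percentiles were 9.47, 12.3 and 16.5. A fold of at least 10 was reached by 92 shared peaks (8.57%), against 27.2% of all ZT10 peaks on these chromosomes and 17.3% of peaks at a single end. A fold of at least 20 was reached by 8 shared peaks (0.745%), against 4.76% of all. A fold under 5 was held by 284 shared peaks (26.4%), near the 24.2% of all. Only 1 shared peak stood among the 100 ZT10 peaks of highest fold and 5 among the top 1000.

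**Figure D3:**
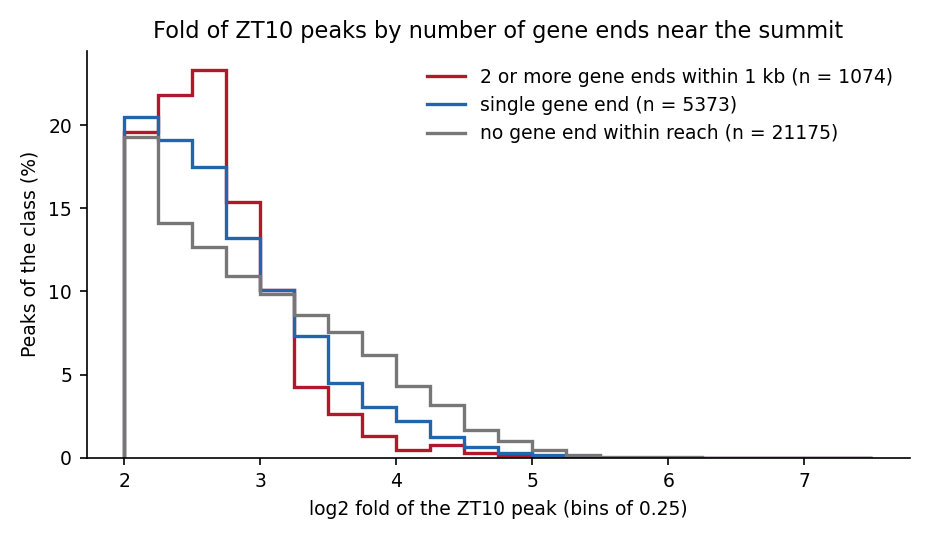
Distribution of the log2 fold of ZT10 peaks on chromosomes 1 to 19, in percent of each class per bin of 0.25, for 1074 shared peaks, 5373 peaks at a single gene end and 21175 peaks with no gene end in reach. Shared peaks pile up below a log2 fold of 3 and thin out above it; their share at a fold of at least 10 is 8.57%, against 17.3% and 30.6% in the other classes.

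Depth at the summits bears on how firmly a single fold can be read. Summits of shared peaks held 83 to 780 fragments, with a median of 130, as solved from the fold and the p-value of each peak. The median was 136 at single ends and 157 at peaks with no end in reach. At the lower end, 83 fragments give a fold of 4.01 with a 95% interval of 3.23 to 4.92 (exact Poisson), which covers counting error only, as do all intervals here. The local background was above its lowest level of 4.14 at 13.4% of shared peaks and 13.0% of all, so background was about as often raised at shared peaks as elsewhere.

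Widths were close to those of other peaks except among the widest. The median width was 1608 bp, with quartiles of 1093 and 2257 bp and a range of 220 to 28338 bp, against 1634 bp at single ends and 1705 bp with no end in reach. A width of at least 4 kb was reached by 59 shared peaks (5.49%), against 13.4% of all ZT10 peaks. Higher peaks were wider, with Spearman's rho of 0.68 over the 1074 shared peaks and 0.77 over all 27622, a description of peaks that share 1 pool. Fold hardly followed the distance between the gene ends (rho 0.10 over 1057 peaks) or the distance to the nearer end (rho 0.06). By orientation the median fold was 6.05 head to head, 5.98 head to tail and 5.22 over the 20 tail-to-tail peaks. It was 5.94 where a strand was not known and 6.44 over the 17 peaks with 3 genes. It was 6.26 where the summit lay in neither gene, 5.88 inside 1 gene and 6.27 inside both. The median was 5.80 for 640 pairs with ends up to 250 bp apart, 6.38 for 207 over 250 and up to 500 bp, 6.35 for 169 over 500 and up to 1000 bp and 6.07 for 41 beyond. The share of head-to-head peaks at a fold of at least 10 had no single trend over these distances, at 7.80% (33 of 423), 8% (10 of 125), 19.4% (14 of 72) and 0 of 16.

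The strongest shared peak lay on chromosome 14 from 31633655 to 31646701, over the facing 5′ ends of Hacl1 and Btd. Hacl1 encodes a peroxisomal lyase of fatty acid alpha-oxidation, and Btd encodes biotinidase, which recovers biotin. Its fold was 36.0 (95% interval 33.6 to 38.6) on 780 fragments, and it was 13047 bp wide. The 5′ ends lay 92 bp apart, but the summit lay inside Btd, 782 bp from that gene's 5′ end and 874 bp from that of Hacl1. It ranked 100 among all autosomal ZT10 peaks.

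The peak at Cept1 and Dram2 had a fold of 21.2 (19.3 to 23.3), below the interval of the strongest peak, at Hacl1 and Btd. The 5′ ends of Cept1 and Dram2 were 4 bp apart. Cept1 encodes an enzyme that makes phosphatidylcholine and phosphatidylethanolamine, and Dram2 a lysosomal membrane protein linked to autophagy.

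Cfb and C2 encode the paired serine proteases of the alternative and classical complement pathways, which the liver secretes. Their peak on chromosome 17 from 34858982 to 34863833 had a fold of 24.2 (22.2 to 26.4), with the summit 11 bp inside C2 and 99 bp from Cfb. N4bp2l1 and N4bp2l2 are head to tail with 1253 bp between them, and a summit in that gap had a fold of 23.9 (21.9 to 26.1). Slc26a8, an anion transporter gene known from sperm, and Mapk14, which encodes the p38 alpha kinase, are head to head. Their peak was 10489 bp wide with a fold of 20.5 (18.7 to 22.5). Fam210a and Rnmt, the latter the methyltransferase of the mRNA cap, shared a peak with a fold just under 20 (18.2 to 22). Ap3m1 and Adk, the gene of adenosine kinase, shared one of 19.8 (18 to 21.8). Amdhd1, of histidine breakdown, and Ccdc38 shared one of 19.4 (17.6 to 21.4) that was 9703 bp wide, and Armh1 and Tmem53 one of 19.3 (17.5 to 21.2). The intervals from Cept1 and Dram2 down to Armh1 and Tmem53 all overlap, so their order is within counting error.

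**Figure D4:**
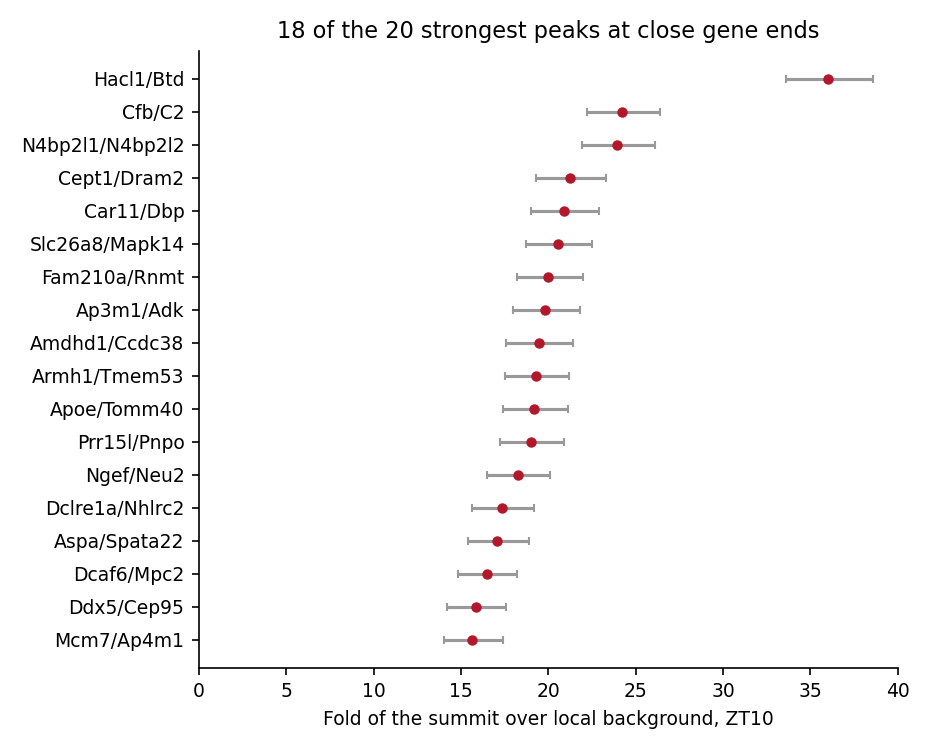
Fold of the summit over the local background for 18 of the 20 shared peaks of highest fold, named by their genes in chromosome order; points are the authors' folds and bars the exact Poisson 95% intervals, which cover counting error only. Hacl1/Btd at 36.0 stands above the rest, and the intervals of neighbours further down overlap.

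The widest shared peak covered 28338 bp on chromosome 7 from 19674585 to 19702922, over Apoe, which encodes a lipoprotein component made by hepatocytes, and Tomm40, part of the mitochondrial import pore. Its fold was 19.2 (17.4 to 21.1). The annotated ends, the 5′ end of Apoe and the 3′ end of Tomm40, are 3 bp apart. The summit lay 368 bp inside Apoe. The peaks of Hacl1, Car11 and Slc26a8 were also among the 5 widest.

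Clock genes in shared peaks ranged from a fold of 20.9 at Dbp and 15.3 at Per3 to 5.34 at Timeless. The peak at Dbp, a clock output gene for a PAR bZIP activator, lay on chromosome 7 from 45704059 to 45715943, 11885 bp wide. Its fold was 20.9 (19 to 22.9) on 451 fragments, its summit 26 bp inside the 5′ end of Dbp and 439 bp from the 3′ end of Car11. Per3, a period gene, faces the predicted gene Gm38529 with 146 bp between the 5′ ends. Their peak had a fold of 15.3 (13.7 to 17), with the summit 276 bp outside Per3 and 130 bp inside Gm38529. Timeless, a replication fork gene named after a fly clock gene, shared a peak of fold 5.34 with Mip. In the core clock list 2 of 21 genes (9.52%) were in a shared peak, near the 10.1% of all 20661 protein-coding genes on these chromosomes. Ncor1, the gene of the corepressor that REV-ERBα recruits, shared a peak of fold 6.31 with Pigl, and its summit was 895 bp from the 5′ end of Ncor1. Nr1h3, the gene of the receptor LXR alpha, shared one of fold 6.99 with Acp2, 6 bp from its own 5′ end.

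Mitochondrial translation and respiration gave the most genes. Of 78 mitochondrial ribosome genes, 33 (42.3%) had an end in a shared peak, at a median fold of 6.03, against 10.1% of all genes and a median fold of 6.07 over genes in shared peaks. The strongest were Mrpl52 with Mmp14 at 9.52, Mrps18b with Ppp1r10 at 8.60 and Mrps6 with Slc5a3 at 8.28. For Mrpl52 the summit lay 943 bp from the 3′ end of the gene. Of 81 oxidative phosphorylation genes, 28 (34.6%) were in a shared peak at a median of 6.05. The strongest were Ndufa4 at 10.6, Ndufs8, a subunit of NADH dehydrogenase, at 9.93, and Sdha, the flavoprotein of succinate dehydrogenase, at 8.60. Close neighbours are common in these lists: 64.1% of mitochondrial ribosome genes and 64.2% of oxidative phosphorylation genes had an end within 2 kb of another gene's end, against 33.2% of all genes. Among only the genes with such an end, the share in a shared peak was 66.0% and 53.8%, against 30.3% of all. That 30.3% takes in ends of every orientation. Counted by pairs of ends, the share with a summit was 62.9% head to head, 16.5% head to tail and 2.22% tail to tail. Orientation was not adjusted for in these or the following lists, and its part in their shares was not tested. Some peaks joined genes of these lists, which was noticed after their values had been seen: Ndufs6 and Mrpl36 shared a peak of fold 6.90, Mrpl47 and Ndufb5 one of 5.11, and Mrpl46 and Mrps11 one of 4.14.

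The other housekeeping lists had shares from 41.2% down to 13.2%, against 10.1% of all genes. Chaperonins had 7 of 17 genes (41.2%), with Hspd1 and Hspe1, the subunit and lid of the mitochondrial chaperonin, under a peak of fold 10.0 that was 4062 bp wide, and Cct5, of the cytosolic chaperonin, at 8.28. Aminoacyl-tRNA synthetases had 11 of 37 (29.7%), led by Ears2 at 10.5, Fars2 at 8.65 and Yars at 6.42. RNA polymerase subunits had 8 of 28 (28.6%), led by Polr2i at 14.5 and Polr2h at 9.61. DNA repair had 12 of 43 (27.9%), led by Apex1, the main abasic-site endonuclease, at 8.97, and by Prkdc at 7.45. DNA replication had 9 of 35 (25.7%), led by Mcm7, a subunit of the replicative helicase, at 15.6 with a peak over it and Ap4m1, and by Rpa1 at 10.5. Cytosolic ribosome genes had 13 of 71 (18.3%) at a median of 5.57, with Rpl15 at 10.2 the strongest. The proteasome had 5 of 38 (13.2%), with Psmb3 at 13.0. That summit lay 733 bp from the 3′ end of Psmb3. The shared peak at the 5′ end of Psmb3, with Pcgf2, had a fold of 6.44. Autophagy had 4 of 19 (21.1%), with Atg3 at 11.2 (9.83 to 12.7), Atg9a at 7.64 and Becn1 at 7.27. The Atg9a summit of fold 7.64 lay 810 bp from the 3′ end of Atg9a. A shared peak at the 5′ end of Atg9a, with Ankzf1, had a fold of 7.27. Heme synthesis and breakdown had 3 of 12 (25%), which were Urod at 6.58, Ppox at 6.26 and Blvrb at 5.80. Genes of these lists with an end within 2 kb of another gene's end were also taken alone. Their share in a shared peak ran from 63.6% for chaperonins to 29.4% for the proteasome, against 30.3% of all such genes. Between these lay aminoacyl-tRNA synthetases at 57.9%, DNA repair at 38.7% and cytosolic ribosome genes at 35.1%. Among the lists of this paragraph, only the proteasome lay below all such genes. Peroxisome biogenesis, grouped here with the lists of hepatocyte metabolism, lay lower than the proteasome by the same measure.

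Lists of hepatocyte metabolism lay on both sides of the 10.1% of all genes, and at their size a few genes decide the share. Fatty acid and triglyceride synthesis (22 genes), glucose and glycogen (20), urea cycle and amino acids (21) and plasma proteins (28) had 0 genes in a shared peak. Of these, 7, 6, 6 and 7 genes had an end close to another gene's end. The lists are short and hold only part of each function, so 0 applies to the listed genes alone. The complement genes Cfb and C2, with a peak of fold 24.2, and Amdhd1, of histidine breakdown, at 19.4, were in shared peaks but in none of these lists. Fatty acid oxidation and ketogenesis had 4 of 25 (16.0%), among them Etfdh at 12.4, Eci1 at 7.96 and Etfb at 4.16. Cholesterol synthesis had 3 of 22 (13.6%), which were Mvk, the mevalonate kinase gene, at 7.31, Tm7sf2 at 5.94 and Dhcr7 at 4.79. Lipid droplets and lipoproteins had 3 of 23 (13.0%), which were Apoe at 19.2, Cideb at 7.50 and Mttp, needed to load apolipoprotein B with lipid, at 5.71. Bile acid synthesis and transport had Hsd3b7 at 8.60 as its only gene of 20, and xenobiotic metabolism had Sult1a1 at 10.2 of 17. Peroxisome biogenesis had 2 of 17 (11.8%), with Pex11a at 8.28. The lists of neuronal (19), Kupffer cell (13), lymphocyte (13), stellate cell (12), liver endothelial (13) and cholangiocyte (9) genes had 0 in a shared peak. In that order, only 6, 3, 5, 2, 4 and 1 of them had an end within 2 kb of another gene's end. The others could not be in a shared peak.

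**Figure D5:**
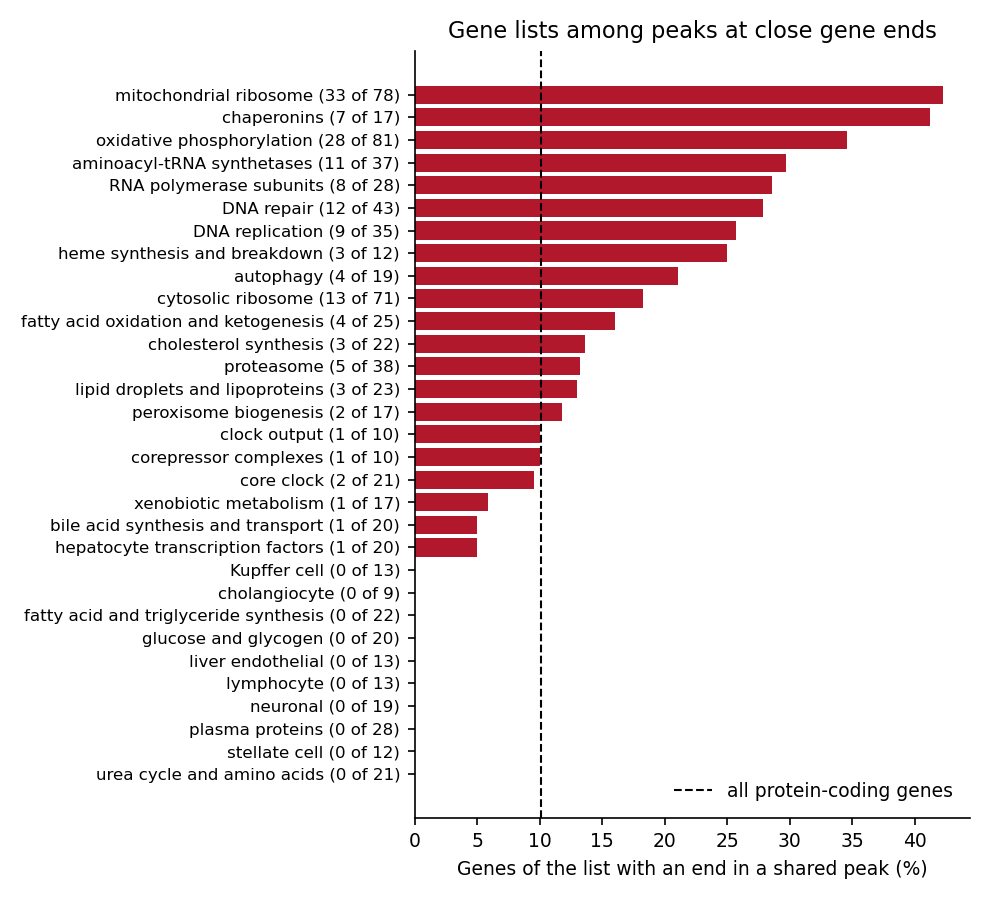
Share, in percent, of the genes of each of 31 lists that had an end within 1 kb of a shared summit, with the number of genes of how many on chromosomes 1 to 19 in brackets; the dashed line marks all protein-coding genes, 10.1%. Mitochondrial ribosome, chaperonin and oxidative phosphorylation genes are at the top, and 10 lists of liver metabolism and cell type markers are at 0.

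Among 14 pairs that textbooks use as examples of bidirectional promoters or linked neighbours, 6 had a shared peak. Over all pairs of ends up to 2 kb apart the share with such a summit was 22.7%, and 62.9% for head-to-head ends. So few pairs do not set the textbook pairs apart from other close ends. Besides Hspd1 and Hspe1 these were Surf1 and Surf2, with a fold of 5.75, Atm and Npat (5.82), Mcm4 and Prkdc (7.45), Sars2 and Mrps12 (6.12), and Tap1 and Psmb9 (5.75). At Atm, the gene of the kinase that senses DNA double-strand breaks, the summit lay 8 bp from the end. The other 8 pairs had none although their ends lay 84 to 852 bp apart. The nearest summit to Gart and Son was 214 bp from Son but 1066 bp from Gart, that to Brca1 and Nbr1 was 1544 and 1392 bp away, and that to Sirt3 and Psmd13 was 1435 and 1520 bp away. The nearest to Hadha and Hadhb, the trifunctional protein genes of beta-oxidation, had a fold of 16.7 at 2491 and 2764 bp. Those of Ppat and Paics, Tk1 and Afmid, and Col4a1 and Col4a2 lay farther still, at least 2772 bp from either end.

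Peaks with 3 genes in reach included Ampd2, Gm12500 and Gnat2, with a fold of 13.0, Mmp24, BC029722 and Eif6 (7.96), Cyb5d1, Naa38 and Tmem88 (7.22) and Trappc13, Shld3 and Trim23 (7.22). The histone genes H2ac21, H2ac20 and H2bc21 shared one of 7.88, but these genes have near-identical copies, so that value is uncertain. The lowest fold, 4.01 on 83 fragments (3.23 to 4.92), was held by 7 shared peaks, at Copg2 and Tsga13, Pfdn6 and Wdr46, Thap4 and Atg4b, Glmn and Rpap2, Tapbpl and Cd27, Ptcd1 and Cpsf4, and Ss18l1 and Mtg2. Just inside the reach of 1 kb were Kmt2b and Zbtb32, whose farther end was 1000 bp from a summit of fold 7.04, and Tas1r1 and Nol9 (998 bp, 4.83). Just outside were Ctns and Shpk (1004 bp, 11.5) and Prpf8 and Rilp (1008 bp, 14.3).

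At ZT22 none of the 1074 shared peaks lay under a listed peak. The ZT22 list held 36 peaks, and 24 of the 27622 autosomal ZT10 peaks (0.0869%) had one over them, 3 of these at a single gene end. With so few peaks at ZT22, 0 shared peaks is near what this share of all peaks would give, and it says nothing particular about shared peaks.

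Shared peaks were spread over all 19 chromosomes. Chromosome 11 held the most, 112, which was 5.78% of its peaks, and chromosome 17 the largest share, 7.04% or 81 peaks. Chromosome 18 held the fewest, 13 or 1.48%.

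The promoters of genes in shared peaks were rich in GC and poor in TATA letters. Over 1468 windows of such genes the median GC content was 62.0% and the median number of CG dinucleotides was 24 per 300 bases, against 56.7% and 14 over all 14810 windows. At 3673 promoters of genes whose 5′ end was the single gene end within 1 kb of a summit they were 61.7% and 22. TATAAA was found on either strand in 4.90% of the windows of shared peaks, 7.60% of those at single 5′ ends and 13.9% of all. GGGCGG, the letters of GC boxes, was found in 67.8%, 68.9% and 47.8%.

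CCGGAAG was more frequent at shared peaks than at such single 5′ ends, a difference that was not tested. It was found in 28.8% of the windows of shared peaks (423 of 1468), 18.5% of those with a peak at a single 5′ end and 12.4% of all. AGGTCA, the half-site of REV-ERBα and related receptors, went the other way, with 10.7% (157 of 1468), 12.8% and 14.2%. In the 122 windows of shared peaks with a fold of at least 10 AGGTCA was found in 15.6% (19 windows) and CCGGAAG in 23.8% (29 windows). AGGTCA preceded by the letters AANT was found in 1 window of shared peaks (0.0681%) and 0.149% of all, and a tandem of AGGTCA with 2 bases between was found in 0 windows. CCAAT was found in 40.5%, 40.2% and 39.4% and CACGTG, the E-box of the clock activators, in 12.4%, 12.1% and 8.09%, in the same order. Facing windows overlap, so a match can count for both genes of a pair, and base composition differs between the sets; its part in these shares was not tested. A match is a string of letters and not a measured site, and windows cover only part of each peak.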

How the data were processed

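The members, gene lists and pairs were chosen with earlier results of these data known. Chromatin was fixed with formaldehyde and EGS, sonicated and tagmented with Tn5 to make libraries, per the labels' protocols. MACS2 2.1.2, BWA 0.7.17, SAMtools 1.9, deepTools 3.3.0, Picard 2.18.12, cutadapt 2.3, bcl2fastq 2.17 and the build mm10 appear in the submitters' processing notes without a role or order. Which control library was used was not given in the sources used here. The authors combined the 4 samples of each list, per the labels, and each deposited peak has a fold, a ratio of summit to local background, and a −log10 p-value and −log10 q-value. These are the authors' values, used only to order and describe peaks of the same list.

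Summits were compared with gene spans of the RefSeq table of GRCm38.p6 (20661 protein-coding genes on chromosomes 1 to 19). Strand came from the RefSeq promoter table and was known for 16456 of them (79.6%). That table gave 14810 windows, 1 per gene, for the motif counts. Starts inside a span were not used for distances. Fragments were solved from the fold, with a pseudocount of 1, and the Poisson upper tail of the p-value. The solved summits lay within 0.1 of a whole number at 99.9% of peaks, with 1 fragment worth 0.236 of pileup. No solution was found for 47 peaks, of which 0 were shared peaks. Scripts were tested on simulated data and used Python 3.11.15, pandas 2.3.3, numpy 2.4.6, scipy 1.17.1 and matplotlib 3.10.9. Peak lists hold no expression, so the tissue label was not checked against marker levels.

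Genes were named by rule: the 12 strongest, 5 widest and 5 weakest shared peaks, 5 peaks with the most genes, core clock genes, up to 3 genes of highest fold per other list, the 14 textbook pairs, and 2 peaks on either side of the reach. Names beyond it are said to be chosen after their values were seen, and Ddx5 and its window were too. Some genes taken by the rule, and results that need them, are not reported here.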

Additional observations from a re-analysis of the deposited data

How the results depend on the processing

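Across 11 results and 95 alternative values, 72 stayed close to the value reported and 23 moved. Only the difference in median fold had a direction that could change, and 0 of its values did. The 72 include the number of shared peaks under a ZT22 peak, which was 0 under every alternative. Counts had a wide margin, so 1541 shared peaks at a reach of 2 kb was called close to 1074. The number of shared peaks was 1988 with the ends of all annotated genes and 715 with spans that do not overlap, against 1074. The median fold was 6.63 among peaks with a −log10 q of at least 10, where the median width was 1840 bp, 11.6% had a fold of at least 10 and 30.8% of mitochondrial ribosome genes were in a shared peak. With strength taken as −log10 q, the median was 14.3 and the difference from single gene ends was -0.86 in that unit. The difference in median fold, shared minus single, was -0.20, and it became -0.55 at that minimum of −log10 q and -0.32 with each of all annotated genes, a reach of 2 kb and spans that do not overlap. The median width was 1672 bp with a reach of 2 kb and 1542 bp with a reach of 500 bp. The share at a fold of at least 10 was 12.4% with all annotated genes and 12.2% at 2 kb. The share of oriented pairs that were head to head was 87.0% with both ends within 500 bp, 83.5% with all annotated genes, 64.4% at 2 kb, 87.1% at 500 bp and 74.0% with spans that do not overlap. CCGGAAG was found in 24.1% of windows with all annotated genes and in 31.6% at 500 bp. The cause of these changes was not tested, apart from the sets of peaks that each alternative takes. Peaks at the lowest local background alone, and leaving out genes named Gm or Rik, were chosen after seeing the data and moved none of the 11 results. No paired analysis was possible because each list combines its 4 samples, and for the same reason no replicate could be left out. Depth limits single folds, and the minimum fold of the list hides weaker binding.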

Other observations

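Pairs that meet tail to tail, with no annotated 5′ end at the shared boundary, were rare, and 20 of the 809 oriented pairs were of this kind. The strongest, chosen after their values were seen, were Fam166c and Cib4, with a fold of 15.4 (95% interval 13.8 to 17.2) in a gap of 1494 bp, and Cyp2w1 and 3110082I17Rik, with 11.6. The peak between Stk16 and Tuba4a was 9843 bp wide with a fold of 8.69. Stat5a and Stat3, neighbouring genes of cytokine signalling, had a peak of fold 5.61 in a gap of 1637 bp. The 3′ ends of Elovl1, which encodes a fatty acid elongase, and Cdc20, which encodes an activator of the anaphase-promoting complex, lay under a peak of fold 5.06, and those of Usp16 and Cct8 under one of 4.60. Starts inside a gene span were not used, so a promoter within one of these genes was not tested.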
